A study of Homo sapiens with 9 samples.

Results

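HCT8 is an established human line of ileocecal colorectal adenocarcinoma cells, and the comparison described here asks how its polyadenylated RNA differed after exposure to membrane vesicles of Vibrio cholerae. The treated cells received vesicles labelled C6706 for 5 h, and the control cells received 20 mM Tris-HCl for the same time. The sample labels call the control untreated. Each group has 3 libraries, numbered 1 to 3. A further 3 libraries of the series, from HCT8 cells given E. coli vesicles labelled MC1061 for 5 h, enter only the fit over all 9 libraries. The labels leave unsaid whether a group's libraries stem from different cultures of cells. The p-values therefore speak only of library-to-library spread, which may be technical. The vesicle dose is not stated, and the cells were of 1 line, with no animal or donor.

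The deposited table has 26008 rows, each with the name of 1 gene and a whole-number count per library, and 3453 of them had 10 or more counts in at least 3 of the 6 libraries. These 3453 rows are described here, and they held 93.6% of the counts. Most counts of the table look antisense to the gene that names the row. A row is therefore given with the protein-coding gene whose exons lie on its opposite strand, called the opposite gene, where there is one. Of the rows tested, 1680 have an opposite coding gene, 574 have exons of a non-coding gene opposite, 1146 have no exon opposite and 53 could not be matched to the annotation. Rows of the first kind held 77.5% of the counts tested. The table alone does not settle which transcript gave the reads, so each result below is the result of a row. In 107 of the 1680 rows (6.37%) the longest exon overlap with an opposite coding gene is shorter than the 50 nt read, and the called rows of that kind are named where they are described. Reading by the opposite gene means that only genes with a neighbour on the other strand can be seen, and genes known to answer bacteria, among them CXCL8 with 0 counts over the 6 libraries, CCL20 with 1 and NFKBIA with 8, could not be assessed.

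Gram-negative bacteria shed vesicles from their outer membrane, and these particles carry lipopolysaccharide, membrane proteins and other cargo into host cells. Gut epithelial cells answer such material through innate sensing, and they also have stress pathways that deal with oxidants and foreign cargo. One of them is controlled by NRF2, a transcription factor that is released from its inhibitor KEAP1 under oxidative stress and switches on genes for cystine import, iron storage and the reduction of reactive carbonyls. SQSTM1, also called p62, is both an NRF2 target and an autophagy receptor that binds KEAP1. E2F transcription factors act on another set of genes, those that a cell needs to enter S phase and copy its DNA.

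Library totals ran from 363557 to 733412 counts, and 3 counts were worth 4.07 to 9.13 CPM (counts scaled to a fixed depth, here with edgeR and its TMM normalization factors). Housekeeping rows were low, with 33 to 63 counts in a library for GAPDH and 26 to 34 for ACTB. Both replicate 3 libraries stood apart from the other 4 on the first principal component of log2 CPM, which carried 45.7% of the variance, and they put 69.5% and 71.0% of their counts into rows with a coding gene opposite against 76.6% to 77.7% elsewhere. Between replicates 1 and 2 the chi-square per degree of freedom was 1.08 in the V. cholerae group, close to sampling noise (chi-square p = 0.00246), and 1.51 in the control group, against 6.68 to 8.92 for pairs with replicate 3 within a group. The 5 rows opposite intestinal epithelial markers held 2.44% to 3.05% of the counts in controls and 1.64% to 2.32% after vesicles, while the 1 row opposite a leukocyte marker, the 4 opposite fibroblast and smooth muscle markers (SPARC at 0) and the 2 opposite neuroendocrine markers each held, as sets, at most 7 counts per library. No row lay opposite an endothelial marker. In bulk RNA, fewer cells of a kind and less RNA per cell cannot be told apart.

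How many rows changed depended on whether the replicate number entered the fit. When replicate number entered as a block, edgeR's robust quasi-likelihood test called 160 of 3453 rows (4.63%) under 0.05 after Benjamini-Hochberg adjustment, 89 of them higher after V. cholerae vesicles (2.58% of the rows tested) and 71 lower (2.06%). Without the block it called 2 rows (0.0579%), both higher, and both were among the 160. The block takes the offset of replicate 3 out of the spread, which lowered edgeR's common dispersion from 0.0545 to 0.00433. In the blocked fit 3114 of the 3453 rows had an infinite prior df, so edgeR used a spread pooled over rows. For these rows the blocked SE and p-value do not measure how far the row's own 3 pairs differed. Without the block 140 rows (4.05%) had an unadjusted p under 0.05, and with it 531 (15.4%). The higher calls had a median log2 fold change of 0.69 (range 0.23 to 3.07) and the lower calls one of -0.48 (range -1.86 to -0.22), so most changes were modest, and 27 higher and 7 lower calls exceeded 2-fold. In 153 of the 160 rows the 3 same-numbered pairs had the same sign, as they did in 35.4% of all rows tested. In 85 of the 160 the groups did not overlap (55 higher and 30 lower), against 325 of all 3453 rows (9.41%, made up of 4.98% higher and 4.43% lower). The 160 rows were chosen by a fit on these same libraries. Higher shares among them follow from that choice and do not support the calls. Below, "rose" and "fell" are used for rows called with the block, and the rows that were called without it are named.

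Both calls without the block were lost when control 1, control 2, V. cholerae 1 or V. cholerae 2 was left out, and when V. cholerae 1 and 2 were summed into 1 library. The count of blocked calls varied with the setting. With replicates 1 and 2 summed in each group the blocked fit called 26 rows, with DESeq2 30, with all 9 libraries of the series (the E. coli group included) in 1 fit 14, and with 1 library left out 48 to 123. A total of 32 rows, 20 higher and 12 lower, were called in all 6 blocked fits that left out 1 library each, and 26 of the 29 rows described below for their small blocked p-values were among them. The exceptions were the rows of DNAH11, CCNA2 and PKMYT1. In a blocked fit the same-numbered partner of a left-out library no longer informs the contrast.

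Of the 160 calls, 147 were lost in at least 1 blocked alternative, most often with all 9 libraries (146) or with replicates 1 and 2 summed in each group (134). Of the 29 rows, 17 were lost with all 9 libraries and 7 with replicates 1 and 2 summed. The 12 that were called in every blocked alternative that tested them were C5orf45, NME7, SLC9A3, PP7080, B3GALT6, TAPSAR1, MYBBP1A, CBR3-AS1 and TMEM120B, all higher, and IFNLR1, KRT8 and PCSK7, all lower. The ANKRD13C row, named here only for this, was the other such row. Of the further rows given below as rising or falling, MCAT was called with all 9 libraries and the others were not.

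**Figure D1:**
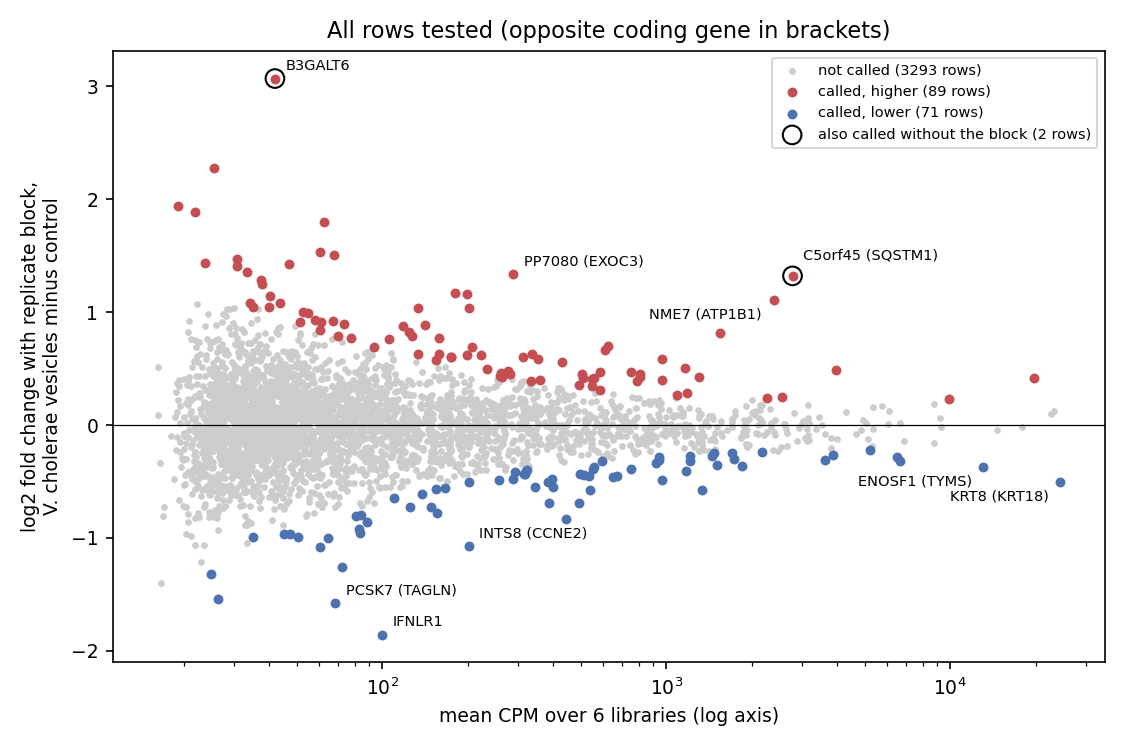
Blocked log2 fold change (V. cholerae vesicles minus control) against the mean CPM over 6 libraries on a log axis, 1 point for each of the 3453 rows. Red points are the 89 rows called higher, blue points the 71 called lower, and the 2 ringed rows, C5orf45 (opposite SQSTM1) and B3GALT6, were also called without the block.

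The row with the smallest p-value in both fits was C5orf45 (XLOC_019302), whose exons lie opposite SQSTM1. It stood at 1632, 1416 and 1653 CPM in control libraries 1, 2 and 3 and at 4519, 4425 and 3068 CPM in V. cholerae libraries 1, 2 and 3. Every vesicle library was above every control, with replicate 3 the lowest of them. The log2 fold change was 1.32 ± 0.08 (SE) with the block (edgeR adjusted p = 1.27e-50) and 1.35 ± 0.21 without it (edgeR adjusted p = 0.0249). A second row, MGAT4B, also lies opposite SQSTM1 and did not pass the test: it held 17, 24 and 32 counts in the controls and 23, 10 and 37 after vesicles, a log2 fold change of -0.35 ± 0.27. Which transcripts fed either was not tested.

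The gene lists used from here on were chosen with earlier results of these data known, so their shares beside all rows are descriptive only. Of the NRF2 and oxidative stress list, 12 rows opposite 10 of its 43 genes could be tested. With the block 5 of these 12 rose and none fell, against 2.58% and 2.06% of all rows, and the list's median log2 fold change was 0.17 without the block, against 0.00 for all rows. Besides SQSTM1, the 4 were opposite SLC7A11, CBR3, FTH1 and MAFK. SLC7A11 is the cystine importer that supplies glutathione synthesis, and the SLC7A11-AS1 row opposite it stood at 113, 129 and 149.7 CPM in the controls and 251, 316 and 254 CPM after vesicles. The groups lay well apart, and the log2 fold change was 1.03 ± 0.16 (edgeR adjusted p = 2.46e-08). With all 9 libraries this row was not called (edgeR adjusted p = 0.448). CBR3 is a carbonyl reductase. The CBR3-AS1 row went from 158, 145 and 60.3 CPM to 365, 354 and 113 CPM, a change of 1.16 ± 0.17 on the log2 scale (edgeR adjusted p = 3.14e-09). Here replicate 3 was low in both groups, so the groups overlapped although each same-numbered pair rose, by log2 1.18, 1.26 and 0.85.

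FTH1 encodes the heavy chain of ferritin, which stores iron. The BEST1 row opposite it held 277, 373 and 212 CPM in the controls and 417, 436 and 402 CPM after vesicles, with no overlap and a change of 0.59 ± 0.12 on the log2 scale (edgeR adjusted p = 0.00018). MAFK is a small Maf protein, the dimer partner of NRF2 on DNA, and the TMEM184A row opposite it rose from 1107 ± 33.9 to 1503 ± 193 CPM (SD, n = 3), log2 0.42 ± 0.08. The 7 other rows of the list, opposite CBR1, EPHX1, PRDX1, UGDH, SOD2 (2 rows, one of them also opposite TCP1) and again SQSTM1, had blocked log2 fold changes between -0.35 and 0.18 and did not pass the test. Of the 5 rows that rose, 2 were called with all 9 libraries (opposite SQSTM1 and CBR3) and 3 with replicates 1 and 2 summed, while the BEST1 and TMEM184A calls were lost in both and in some of the fits without 1 library. For the NRF2 targets NQO1, TXNRD1, GCLM and HMOX1 no row lies opposite, so they were not assessed.

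**Figure D2:**
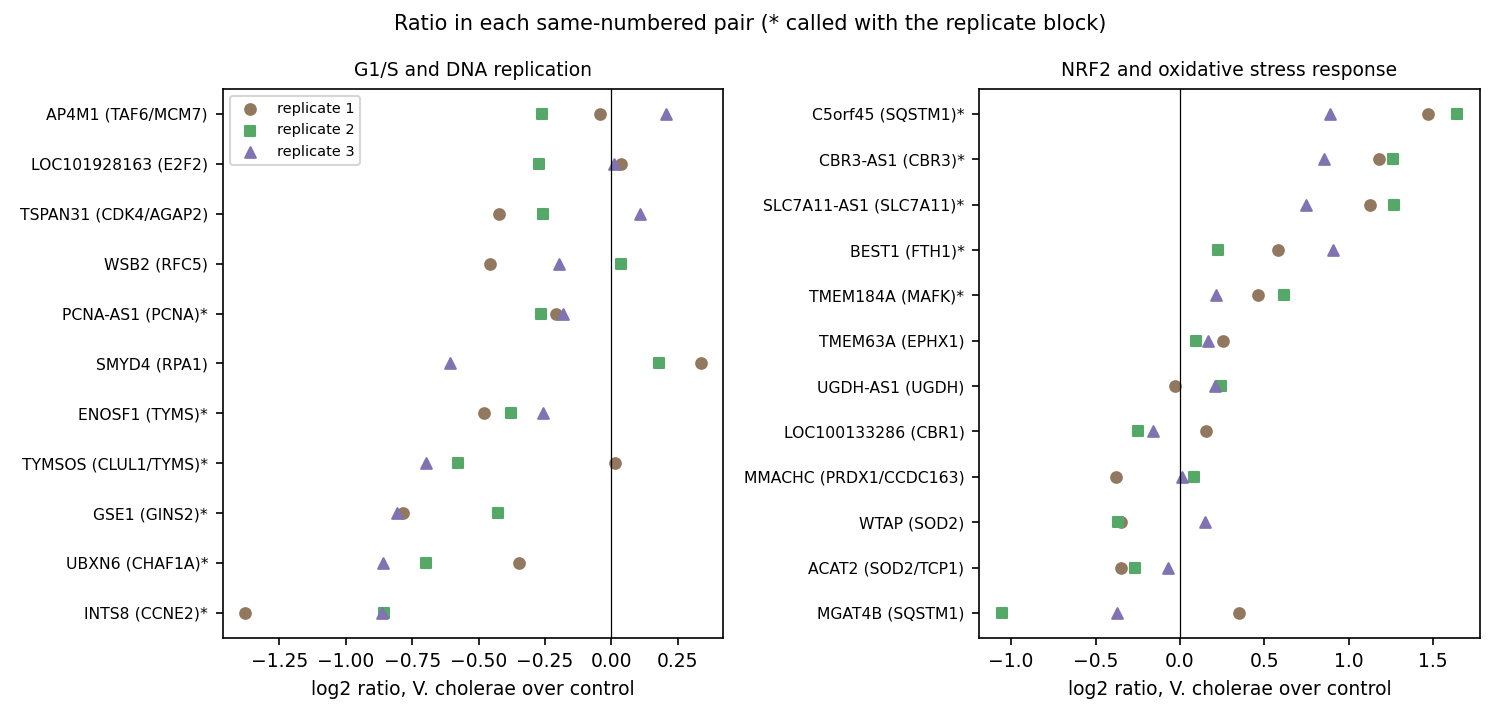
Log2 ratio of V. cholerae over control in each same-numbered pair of libraries (circle, square and triangle for replicates 1, 2 and 3) for 11 of the 12 tested rows opposite genes of G1/S and DNA replication (left) and the 12 opposite NRF2 and oxidative stress genes (right), each labelled with its row name and, in brackets, the opposite genes. Starred rows were called with the block: 6 on the left, all below 0 in the fit, and 5 on the right, all above 0.

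Rows opposite the exocyst and the sodium pump rose with the smallest p-values after C5orf45. ATP1B1 is the beta subunit of the Na+/K+ ATPase, which drives sodium-coupled uptake across the gut epithelium. The NME7 row opposite it stood at 1857, 1507 and 1235 CPM in the controls and 3197, 3357 and 3220.3 CPM after vesicles, with all vesicle libraries above all controls. Its log2 fold change was 1.11 ± 0.08 with the block (edgeR adjusted p = 1.63e-43) and 1.09 ± 0.20 without it (edgeR adjusted p = 0.0682, not called).

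EXOC3 is a subunit of the exocyst, the complex that tethers secretory vesicles to the plasma membrane. It lies opposite 2 rows, and both were called. Each of the 2 overlaps exons of EXOC3 by 839 nt, so they may cover the same stretch and are not separate evidence. The SLC9A3 row also lies opposite the non-coding SLC9A3-AS1. The SLC9A3 row held 974, 932 and 1431 CPM in the controls and 1644, 1531 and 2739.7 CPM after vesicles, and the PP7080 row 128, 162 and 204 CPM and 321, 354 and 567 CPM. In both rows replicate 3 was the highest of its group, and the groups did not overlap. The log2 fold changes were 0.82 ± 0.08 for SLC9A3 (edgeR adjusted p = 1.85e-20) and 1.34 ± 0.14 for PP7080 (edgeR adjusted p = 5.12e-19). SLC9A3 itself encodes the sodium-proton exchanger NHE3 of the intestinal brush border, and its row is read here as EXOC3 and not as the exchanger. Among the 10 rows of the exocytosis, endocytosis and membrane trafficking list, these 2, which share EXOC3, rose and none fell, against 2.58% and 2.06% of all rows. The ZACN row opposite EXOC7, another exocyst subunit, had 0.13 ± 0.08 on the log2 scale and was not called, and the TMED1 row opposite the dynamin DNM2 had 0.15 ± 0.09.

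Of the 10 rows opposite ion and solute transporters, 3 rose (ATP1B1, SLC7A11 and SPNS2) and 1 fell, against 2.58% and 2.06% of all rows. SPNS2 exports sphingosine-1-phosphate, and the MYBBP1A row opposite it went from 116, 115 and 99.8 CPM to 225, 322 and 206 CPM without overlap, log2 1.17 ± 0.17 (edgeR adjusted p = 2.88e-09). The row that fell was SMIM19, opposite the phosphate transporter SLC20A2, with 21, 31 and 24 counts in the controls and 14, 16 and 13 after vesicles, log2 -0.99 ± 0.29, a call lost without library 2 or 3 of either group. Outside that list, the LOC100127888 row opposite the organic anion transporter SLCO4A1 rose from 961 ± 67.2 to 1363 ± 71.5 CPM (SD, n = 3), log2 0.51 ± 0.08. The TMEM120B row opposite RHOF, a small GTPase of filopodia, rose from 3194, 3493 and 3169 CPM to 4954, 5019 and 3941 CPM, log2 0.49 ± 0.07. The C1orf86 row opposite PRKCZ, an atypical protein kinase C of epithelial polarity, rose from 737, 797 and 769 CPM to 1162, 1235 and 1079 CPM, log2 0.59 ± 0.09. In these 3 rows no vesicle library fell as low as any control, and with all 9 libraries TMEM120B alone of them was called.

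**Figure D3:**
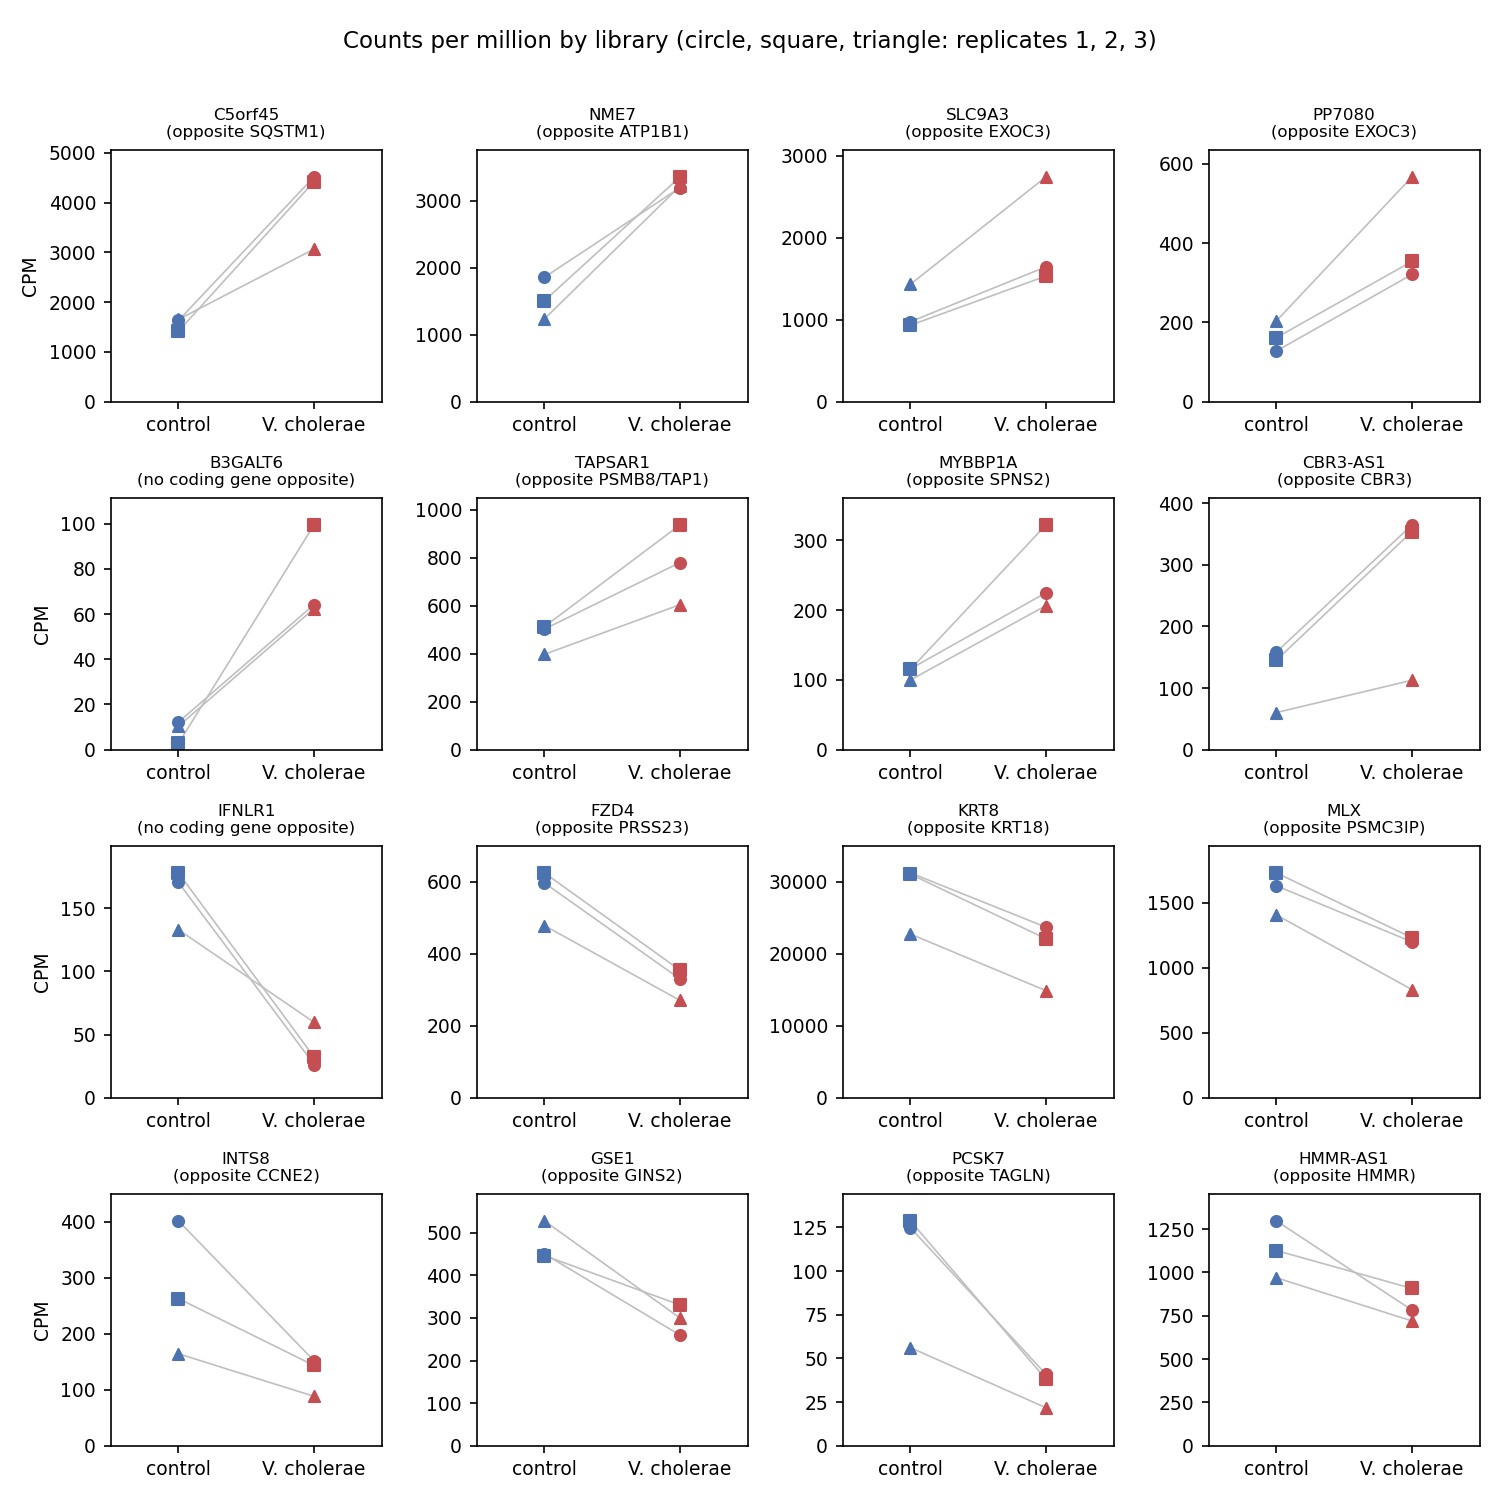
CPM of 8 rows called higher (upper panels) and 8 called lower (lower panels), in order of blocked p-value among the rows reported here, 1 point per library on linear axes from 0, with blue for control, red for V. cholerae vesicles and grey lines joining same-numbered libraries. All lines rise in the upper panels and fall in the lower ones, and the groups overlap only in the CBR3-AS1 row (opposite CBR3) and the KRT8 row (opposite KRT18).

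Of 6 rows tied to antigen processing and 7 tied to interferon, 1 rose and none fell, against 2.58% and 2.06% of all rows. TAP1 moves peptides into the endoplasmic reticulum for loading onto MHC class I, and PSMB8 is an immunoproteasome subunit. The TAPSAR1 row, opposite both, stood at 502, 512 and 397 CPM in the controls and 779, 937 and 604 CPM after vesicles. Each vesicle library was above each control, and the log2 fold change was 0.70 ± 0.10 (edgeR adjusted p = 6.56e-10). It was the only one of 6 antigen processing rows that rose, and the row cannot tell TAP1 from PSMB8. Rows opposite PDIA3, TAPBPL, ERAP1, PSME1 and HLA-F had blocked log2 fold changes from -0.07 to 0.45 and did not pass.

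No row of the interferon-stimulated list passed the blocked test. Of its 7 rows 6 had a log2 fold change above 0, and the list's median was 0.43 without the block, moving between 0.21 (without V. cholerae 1) and 0.44 (without control 2) when 1 library was left out, with 0.28 without control 3. The IL10RB-AS1 row opposite IFNAR2, a chain of the type I interferon receptor, held 8, 11 and 8 counts in the controls and 18, 22 and 23 after vesicles, log2 1.03 ± 0.34 (edgeR adjusted p = 0.0525). The APOBEC3B-AS1 row opposite the cytidine deaminases APOBEC3B and APOBEC3A had log2 0.41 ± 0.14 (edgeR adjusted p = 0.0569), with replicate 3 alike in both groups. The BCL2L12 row opposite IRF3, a transcription factor of interferon induction, had -0.17 ± 0.10 and was not called. One row outside the list rose, TMEM50B, opposite the interferon gamma receptor chain IFNGR2, by log2 0.63 ± 0.13 (edgeR adjusted p = 7.71e-05), and it was singled out after its value was seen.

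No row opposite NF-kB targets and innate sensors was called with edgeR in either fit. There were 5, opposite MIF, PLAU, PYCARD and SOD2 (2 rows), and 4 of the 5 had log2 fold changes below 0, with a median of -0.25 without the block. The LOC284889 row opposite the cytokine MIF, among the rows with the most counts, stood at 21454, 27071 and 16466 CPM in the controls and 27787, 26941 and 15718 CPM after vesicles. Its groups overlapped across nearly their whole range, and the log2 fold change was 0.10 ± 0.07.

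Rows opposite genes of DNA replication fell in 6 of 12 cases and rose in none. The G1/S and DNA replication list, also chosen with earlier results of these data known, had 12 tested rows opposite 11 of its 57 genes. All 12 had a log2 fold change below 0 without the block, with a median of -0.31 against 0.00 over all rows, and 6 of the 12 fell with the block, against 2.06% of all rows. None was called without the block, and the 12 are not independent measurements, since 2 rows share TYMS. With all 9 libraries none of the 6 was called, with replicates 1 and 2 summed in each group 2 were (INTS8 and GSE1), and 3 (INTS8, GSE1 and ENOSF1) were called in all 6 fits without 1 library. CCNE2 is cyclin E2, the partner of CDK2 at S-phase entry. The INTS8 row opposite it stood at 402, 263 and 164 CPM in the controls and 152, 143 and 88.2 CPM after vesicles. Replicate 1 was the highest and replicate 3 the lowest in each group, and no vesicle library reached any control. The log2 fold change was -1.07 ± 0.16 (edgeR adjusted p = 1.75e-08).

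GINS2 is part of the helicase that unwinds DNA at the replication fork. The GSE1 row opposite it stood at 451, 447 and 528 CPM in the controls and 259.8, 331 and 300.0 CPM after vesicles, again without overlap, log2 -0.69 ± 0.12 (edgeR adjusted p = 6.76e-07). Its annotated exons overlap those of GINS2 by only 7 nt, less than a read. TYMS is thymidylate synthase, which makes the thymidine nucleotide for DNA. The ENOSF1 row opposite it had among the most counts of all rows, 17371, 16430.1 and 10444 CPM in the controls and 12457, 12644 and 8743 CPM after vesicles. Replicate 3 was low in both groups, so the groups overlapped, while each pair was lower, with log2 ratios of -0.48, -0.38 and -0.26 (blocked log2 fold change -0.37 ± 0.07, edgeR adjusted p = 7.47e-06). The call was lost with replicates 1 and 2 summed (edgeR adjusted p = 0.0789) and with all 9 libraries (0.14). The TYMSOS row, opposite both TYMS and CLUL1, had -0.45 ± 0.10, with 210, 369 and 319 counts in the controls and 221, 231 and 300 after vesicles. Its pairs gave log2 ratios of 0.01, -0.58 and -0.70, so replicate 1 was level. The TYMS row itself, which is read as ENOSF1, had -0.41 ± 0.13 (edgeR adjusted p = 0.0409). In the blocked fit on the 6 libraries, rows on both strands of this locus were thus called lower. The TYMS call was lost in all 6 blocked fits without 1 library. It was also lost with replicates 1 and 2 summed (edgeR adjusted p = 0.239) and with all 9 libraries (0.505).

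CHAF1A places histones on newly copied DNA, and the UBXN6 row opposite it had a change of -0.73 ± 0.19 on the log2 scale (edgeR adjusted p = 0.00658), with an overlap of only 20 nt. Of the 6 rows that fell, 4 overlap the opposite gene by a read length or more. PCNA is the sliding clamp of DNA polymerase. The PCNA-AS1 row opposite it moved least of the 6, from 5626 ± 1237 to 4820.3 ± 954 CPM (SD, n = 3), log2 -0.22 ± 0.07 (edgeR adjusted p = 0.0431). Among the rows that did not pass were those opposite RPA1 (-0.28 with the block), RFC5 (-0.20), CDK4 and AGAP2 (-0.17), E2F2 (-0.08) and MCM7 and TAF6 (-0.02).

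The promoters of these genes were searched for the core of the E2F motif, written TTTNNCGC and read on both strands, because the members moved in 1 direction. In the RefSeq promoter table (build GRCh38.p14) it occurs in 5.92% of 35116 windows of 250 bases before a gene start. Of the 5 genes opposite the called rows, 4 have a window and 3 of them hold a match. GINS2 (a match) and CHAF1A (none) are counted through rows whose exons overlap them by only 7 and 20 nt, less than a read. Of the 6 genes opposite rows that did not pass, 5 have a window and 2 hold a match, MCM7 and E2F2, so a match was found beside rows that fell and beside rows that did not. PCNA has 2 windows and MCM7 3. The sites are shown to let the letters be compared, 5′ to 3′ on the gene's own strand, with the match in capitals. In GINS2, TYMS, PCNA and the MCM7 site shown, the match is on the reverse strand and its 8 letters are the same. E2F2 holds 3 matches and MCM7 2, and only 1 of each is shown. The E2F2 matches not shown are TTTGGCGC at 42 bases and GCGCTAAA at 38 bases before the start. The MCM7 match not shown is TTTCGCGC at 9 bases. A match is a description of the letters and shows no binding. GINS2 is at chr16:85688967-85688996 (minus strand, 31 bases before the start), TYMS at chr18:657603-657632 (plus strand, 39 bases), PCNA at chr20:5126663-5126692 (minus strand, 59 bases), MCM7 at chr7:100101566-100101595 (minus strand, 187 bases) and E2F2 at chr1:23531292-23531321 (minus strand, 77 bases).
GINS2: ctctcgccgtgGCGGGAAAacggcggccgc
TYMS: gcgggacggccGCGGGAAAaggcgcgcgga
PCNA: cagcgtcagggGCGGGAAAaggcgtgcgtt
MCM7: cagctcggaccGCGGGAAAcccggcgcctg
E2F2: ggagcgcggcaTTTTCCGCgggagatccga

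The same search for the core of the antioxidant response element bound by NRF2, TGACNNNGC on both strands, found it in 10.9% of those windows. Of the genes opposite the 5 NRF2 rows that rose, SQSTM1 has windows in the table, and none of its 3 holds these letters. Of the 5 list genes opposite rows that did not pass, 4 have windows, and CBR1 and EPHX1 hold a match.

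Of 11 rows opposite G2/M and mitosis genes none rose and 1 fell, against 2.58% and 2.06% of all rows. It was HMMR-AS1, opposite the spindle protein HMMR, from 1297, 1126 and 969 CPM to 782, 907 and 719.5 CPM, log2 -0.48 ± 0.09 (edgeR adjusted p = 4.21e-06, and 0.319 with all 9 libraries). Rows opposite PRC1, PLK1, ANLN and NCAPG did not pass, with log2 fold changes of 0.06 ± 0.08, 0.24 ± 0.14, -0.00 ± 0.12 and -0.21 ± 0.08. The EXOSC9 row opposite cyclin A2 (CCNA2) had -0.10 ± 0.08 and did not pass, whereas the CCNA2 row, read as the RNA exosome gene EXOSC9, fell, at log2 -0.46 ± 0.10. Other rows that fell were MLX, opposite the meiotic recombination factor PSMC3IP (1590.4 ± 166 to 1088 ± 222 CPM, log2 -0.57 ± 0.08), DNAH11, opposite CDCA7L (-0.40 ± 0.08), and PKMYT1, opposite PAQR4 and KREMEN2 (-0.36 ± 0.08). PKMYT1 is itself the gene of a mitotic kinase, and its row is not read as that kinase.

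Among rows opposite epithelial keratin and actin cytoskeleton genes (14 rows), 4 fell and 1 rose, against 2.06% and 2.58% of all rows. KRT18 pairs with KRT8 in the intermediate filaments of simple epithelium. The KRT8 row opposite KRT18 had the most counts of all rows, 10269, 11346 and 10944 in the controls and 8123, 7550 and 10964 after vesicles. In CPM these were 31268, 31085 and 22756 and 23714, 22097 and 14885, with replicate 3 low in both groups and each pair lower, with log2 ratios of -0.40, -0.49 and -0.61. The blocked log2 fold change was -0.50 ± 0.07 (edgeR adjusted p = 7.88e-11). The KRT18 row, opposite KRT8, had a like value of -0.34 ± 0.16 on far fewer counts and did not pass (edgeR adjusted p = 0.266).

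Of the 10 rows opposite actin cytoskeleton and SRF target genes, 3 fell and 1 rose, and with all 9 libraries or with replicates 1 and 2 summed the PCSK7 row was the only one of these 4 still called. TAGLN, or transgelin, binds actin filaments, and EZR and VIL1 build and anchor the actin core of microvilli. The PCSK7 row opposite TAGLN held 41, 47 and 27 counts in the controls and 14, 13 and 16 after vesicles, log2 -1.57 ± 0.28 (edgeR adjusted p = 1.88e-06). The LOC100652768 row, which lies opposite TAGLN and also SIDT2, rose from 249 ± 36.0 to 377 ± 51.7 CPM (SD, n = 3), log2 0.60 ± 0.13, so the rows that share TAGLN moved in opposite directions. The EZR-AS1 row opposite ezrin went from 664, 753 and 491 CPM to 523, 539 and 265 CPM, log2 -0.58 ± 0.10 (edgeR adjusted p = 4.84e-06). With replicates 1 and 2 summed it just missed the threshold (edgeR adjusted p = 0.0511), with all 9 libraries the value was 0.373, and the exons overlap by only 24 nt. The USP37 row opposite villin fell, at log2 -0.25 ± 0.08 in the blocked fit (edgeR adjusted p = 0.0423), but its pair of replicates 3 went the other way (log2 -0.47, -0.39 and 0.11). The CAPN12 row opposite the actin cross-linker ACTN4 had -0.18 ± 0.08 and the AP3M1 row opposite vinculin -0.55 ± 0.23, neither called.

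Among 5 rows opposite Wnt and colon stem cell genes, 1 fell and 1 rose, against 2.06% and 2.58% of all rows, and neither was called with all 9 libraries. The FZD4 row opposite PRSS23, a secreted serine protease, stood at 597, 625 and 478 CPM in the controls and 329.9, 354 and 270.2 CPM after vesicles. The drop was alike in each pair, with log2 ratios of -0.85, -0.81 and -0.81, and the blocked value was -0.83 ± 0.11 (edgeR adjusted p = 7.88e-11). The row's own gene, FZD4, is a Wnt receptor and is not what the row is read as. The MIR4253 row opposite EPHB2, an ephrin receptor of crypt cells, rose from 104, 129 and 68.6 CPM to 231, 179 and 141 CPM, log2 0.88 ± 0.19 (edgeR adjusted p = 0.000204), with an overlap of only 34 nt. That call was lost without library 1 of either group and with replicates 1 and 2 summed.

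**Figure D4:**
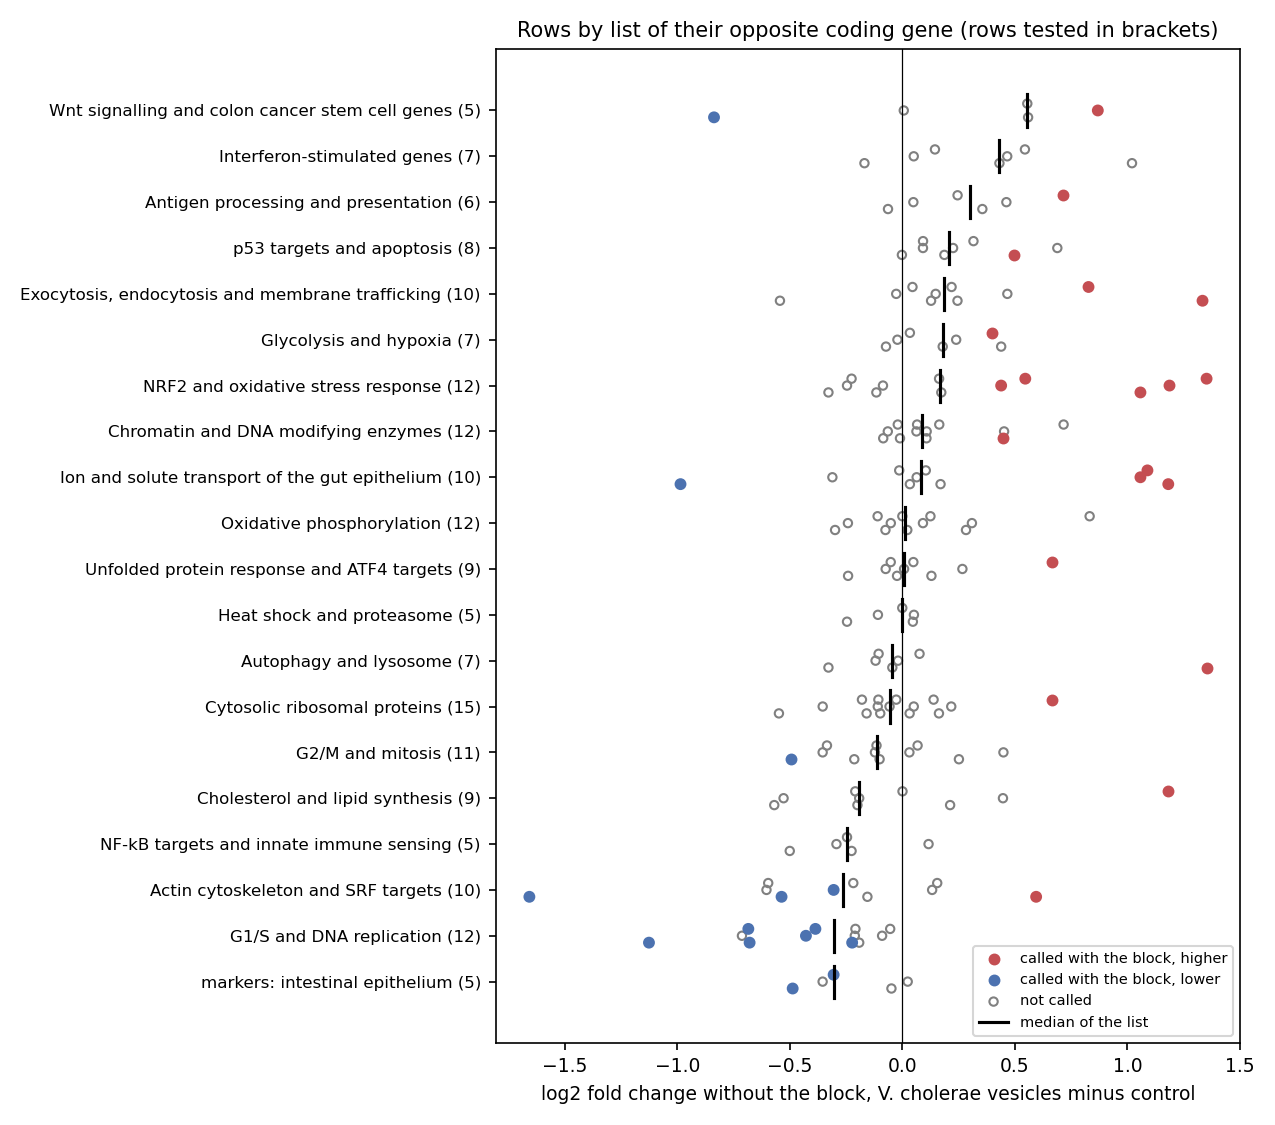
Log2 fold change without the block of every tested row in the lists with 5 or more rows, grouped by the opposite coding gene, with filled points for rows called with the block (red higher, blue lower), open points for rows not called and a black bar at each list's median. All 12 G1/S rows lie left of 0, and the 5 filled points of the NRF2 list lie right of it.

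Of 12 rows opposite oxidative phosphorylation genes none was called with edgeR and the block, of 15 opposite cytosolic ribosomal proteins 1 rose, and of 5 opposite heat shock and proteasome genes none was called, against 4.63% of all rows. Their medians without the block were 0.01, -0.06 and -0.00 on the log2 scale. The ribosomal row that rose, MRPL49, lies opposite FAU and also opposite the ubiquitin ligase gene SYVN1, with 0.63 ± 0.19 on the log2 scale (edgeR adjusted p = 0.024). The MRPL49 call was lost without library 1 or 2 of either group. Of 12 rows opposite chromatin and DNA modifying enzymes 1 rose, KDM4A-AS1, opposite the histone demethylase KDM4A, by log2 0.45 ± 0.14 (edgeR adjusted p = 0.0258), while the KDM4A row itself, opposite the non-coding KDM4A-AS1, fell, at log2 -0.95 ± 0.24. The KDM4A-AS1 call was lost in all 6 blocked fits without 1 library, and the KDM4A call without library 2 or 3 of either group. No row lies opposite DNMT1, DNMT3A, DNMT3B or TET2.

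In the remaining lists single rows passed, and of those that rose only MYBBP1A and C5orf45 were called with all 9 libraries. The RHOBTB2 row, opposite the death receptor TNFRSF10B and PEBP4, rose by log2 0.48 ± 0.14 (edgeR adjusted p = 0.0166) among 8 rows of p53 and apoptosis genes, and the P4HA2-AS1 row, opposite the collagen prolyl hydroxylase P4HA2, by 0.39 ± 0.13 (edgeR adjusted p = 0.047) among 7 of glycolysis and hypoxia. The RHOBTB2 call was lost without library 1 or 2 of either group. The other 6 rows of the autophagy and lysosome list apart from C5orf45, among them CNTD1 opposite BECN1, had blocked log2 fold changes from -0.35 to 0.08 and were not called. Of 9 rows opposite genes of the unfolded protein response and ATF4, MRPL49, through SYVN1, was the only one called. Rows opposite PPIB, PDIA6 and MTHFD2 of that list had 0.13, -0.02 and -0.24. Of 9 rows of the cholesterol and lipid synthesis list, MYBBP1A opposite SPNS2 rose, and rows opposite FDPS, IDI1 and SREBF1 did not pass. SPNS2 is the exporter already counted among the transporters and is not itself a gene of synthesis.

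Of the rows without an opposite exon, the calls numbered 28 of 1146 (2.44%, with 1.83% higher and 0.611% lower) with the block. Of 1680 rows with an opposite coding gene 105 were called (6.25%, with 3.21% higher and 3.04% lower), and of 574 with a non-coding one 27 (4.7%, with 2.44% higher and 2.26% lower). The difference between these classes was not tested. Rows without an opposite exon are the least certain to read, since neither the named gene nor an opposite one can be taken as the source. The largest rise among all calls was in the B3GALT6 row (XLOC_000017), which held 4, 1 and 5 counts in the controls and 22, 34 and 46 after vesicles. B3GALT6 encodes a galactosyltransferase of proteoglycan linkers, and the nearest coding gene on the other strand, SDF4, lies 195 nt away. The log2 fold change was 3.07 ± 0.39 with the block and 3.09 ± 0.47 without it, and the row was called in both (edgeR adjusted p = 1.15e-12 and 0.0249). Its size depends on 1 to 5 counts per control library, and without the block the call was also lost with library totals in place of TMM factors and with limma voom.

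The largest fall was in the IFNLR1 row (XLOC_001430), named for the specific chain of the interferon lambda receptor, which epithelial cells use to sense type III interferon. It held 56, 65 and 64 counts in the controls and 9, 11 and 44 after vesicles, with replicate 3 the highest of the vesicle libraries and still below every control once scaled (171, 178 and 133 against 26.3, 32.2 and 59.7 CPM). The log2 fold change was -1.86 ± 0.23 with the block (edgeR adjusted p = 1.15e-12) and -1.93 ± 0.33 without it, where it just missed the threshold (edgeR adjusted p = 0.0505). The DUSP16 row, named for a phosphatase of JNK and p38 kinases, rose from 396, 433 and 588 CPM to 601, 711 and 934 CPM, log2 0.66 ± 0.10, not called with all 9 libraries (edgeR adjusted p = 0.175). The ACTG1 row, named for cytoplasmic gamma actin, fell from 35, 43 and 37 counts to 19, 17 and 19, log2 -1.25 ± 0.26, and just missed the threshold with replicates 1 and 2 summed (edgeR adjusted p = 0.0511) and with all 9 libraries (0.0561).

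A few more rows were picked out after their values were seen. The GULP1 row, named for an adaptor of engulfment, rose from 10, 13 and 12 counts to 35, 37 and 45, log2 1.53 ± 0.29, and the TIPARP-AS1 row, opposite the aryl hydrocarbon receptor target TIPARP, from 7, 17 and 15 to 43, 45 and 37, log2 1.51 ± 0.28, with an exon overlap of 37 nt. The MCAT row held 3, 2 and 5 counts in the controls and 10, 20 and 30 after vesicles, log2 2.28 ± 0.47. The SOCS2 row, opposite the non-coding SOCS2-AS1, rose by log2 1.04 ± 0.20 in the blocked fit, but its pairs gave 2.05, 1.42 and -0.14, so the rise is in replicates 1 and 2. The LOC100130238 row was of the same kind, with log2 1.80 ± 0.30 in the fit and pair ratios of 2.63, 1.95 and 0.01. The rows opposite the mitochondrial pseudogenes MTCO1P12 and MTND4LP30 rose as well. MIR6723 had 0.42 ± 0.07 and 13315, 15153 and 21296 CPM in the controls against 18737, 16642 and 32945 CPM after vesicles, and its call was lost with the block in limma voom (adjusted p = 0.213), in DESeq2 (0.087) and with all 9 libraries (0.843). MIR4461 had 0.23 ± 0.07, a call lost in every fit without 1 library. In both rows replicate 3 was the highest library of its group.

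Other rows with the most counts, counted per row and not per length, did not pass the blocked test. SNX22, opposite the cyclophilin PPIB, had a log2 fold change of 0.13 ± 0.07, ATP6V1C2, opposite the disulfide isomerase PDIA6, -0.02 ± 0.07, MXD3, opposite the mitochondrial lipid carrier PRELID1, -0.05 ± 0.07, and RPAIN, opposite NUP88 and C1QBP, -0.02 ± 0.07. Their blocked SE was 0.07, and without the block the SE ran from 0.22 (SNX22) to 0.25 (MXD3). Whether a shift of the size seen in ENOSF1 would have been called in these rows was not tested.

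Where at least 2 rows have the same coding gene as their only opposite one, the rows were compared as a check on the reading. There are 54 such genes, and in 31 of them both rows had the same sign. Of these 54 genes 5 had a called row and EXOC3 alone had both called, through rows with the same overlap of 839 nt. Rows with a further opposite gene, such as TYMSOS and LOC100652768, are not in that count. Across the 54 genes the blocked log2 fold changes of the paired rows had a Spearman's rho of 0.12 and a Pearson's r of 0.21, given as a description, since the rows share libraries and many hold few counts. Agreement between such rows was thus weak. With a called row in only 5 of the 54 genes, the check had few changes to compare. It cannot decide whether the reading by opposite gene holds, and it does not bear that reading out. SQSTM1, with one row at 1.32 and the other at -0.35, is among the genes whose rows differed in sign.

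The numbered pairs can be set side by side, with replicate 3 as libraries that the fit on replicates 1 and 2 did not use. That fit, on 4 libraries without a block, called 141 rows, 76 higher and 65 lower. In replicate 3, 62 of the 76 and 59 of the 65 had the same sign, 85.8% together, against 57.6% of all rows tested. In replicate 3 the median log2 ratio was 0.28 for the 76 higher rows and -0.26 for the 65 lower ones. Because the rows were chosen by their values in replicates 1 and 2, no comparison of size between the replicates is drawn. Of the 141 rows, 101 were also called by the blocked fit on all 6 libraries.

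**Figure D5:**
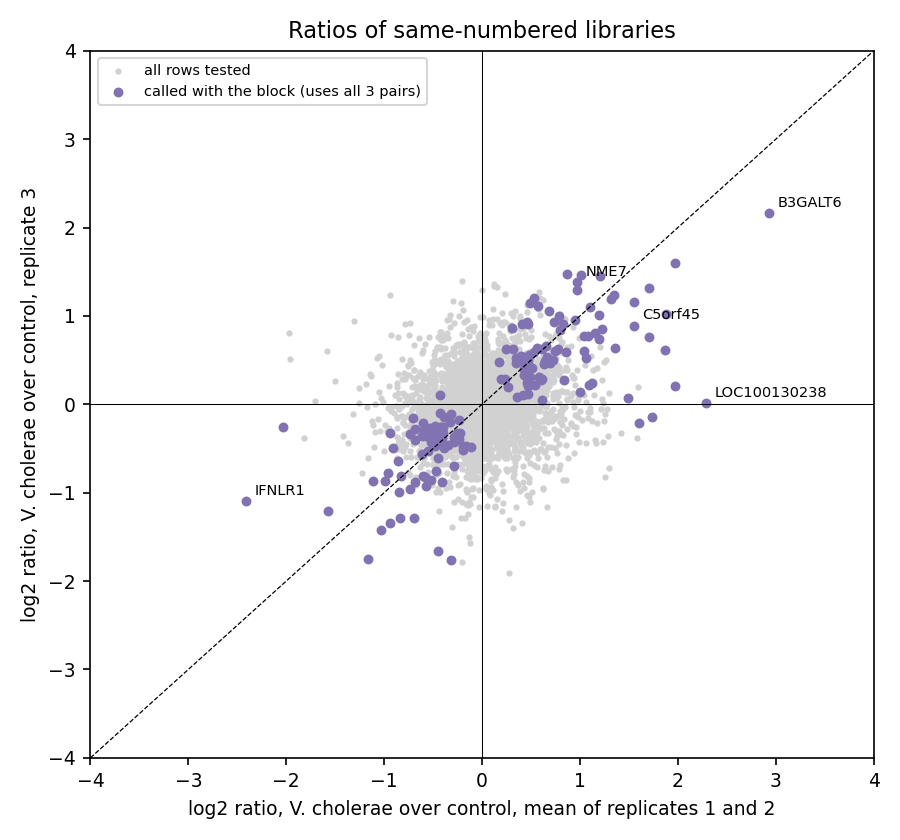
Log2 ratio of V. cholerae over control in replicate 3 against the mean of the log2 ratios in replicates 1 and 2, 1 point for each of the 3453 rows, with rows called by the blocked fit in purple (that fit used all 3 pairs) and the dashed line marking equal ratios. The LOC100130238 row lies near 0 in replicate 3 while B3GALT6 and IFNLR1 moved in all pairs.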

How the data were processed

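Per the labels' protocols, poly-A RNA of HCT8 cells was sequenced as TruSeq stranded libraries with reads of 50 nt. The authors deposited whole-number counts per gene row for 9 libraries, of which 6 are compared here. Per the submitters' processing notes reads were handled with HTSeq 0.6.1, Cufflinks 2.2.1, SAMtools 0.1.19, TopHat2 2.0.12, Bowtie2 2.2.3 and FastQC, on build hg19. The strand setting, annotation and filters are not given in sources consulted here.

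Row names were matched to GENCODE 29 (GRCh38) and RefSeq symbols, giving 1 gene for 25498 of 26008 rows. A row belongs to a gene list through the coding gene with exons on the opposite strand. Because hg19 exons were not used, no row coordinates are given. Counts of rows with 10 or more in at least 3 of the 6 libraries were tested with edgeR 4.0.16 in R 4.3.3 (TMM factors, robust quasi-likelihood F-test, Benjamini-Hochberg adjusted p under 0.05). The fit was by group, and beside it stands the fit with replicate number as a block. The SE is the log2 fold change divided by the square root of F. Lists were described by counts and medians without a test. The code was tested on simulated data.

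Residuals of same-numbered libraries correlated at 0.241, 0.286 and 0.634, all above the threshold of 0.1 set for use of the block. Replicate 1 with replicate 2 of the other group gave 0.208 and 0.308. These correlations therefore do not show that libraries 1 and 2 pair by number. The block mainly sets replicate 3 apart, and the labels do not say that a number marks a shared culture or day.

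Named rows were the 15 of each direction with the smallest blocked p, up to 4 members of each list with the highest mean CPM and the 10 rows with the most counts; alternatives were computed for these rows, except that each list of 5 or more rows entered with its member of highest mean CPM and its called members, and for some of the rows chosen later. Every other named row, including further list members, was chosen after its value was seen. A few rows that the rule names are not reported here. The comparison and gene lists were chosen with earlier results of these data known. Alternatives were other normalizations, filters, limma 3.58.1 voom, DESeq2 1.42.0, all 9 libraries, leaving out libraries, and list membership by row name. A few blocked alternatives were added after the data were seen. No interval is given for single counts, and counting error alone makes rows near 10 counts imprecise.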

Additional observations from a re-analysis of the deposited data

How the results depend on the processing

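The count of called rows depended most on the replicate block. Against 2 without it, edgeR called 160 with it. Other settings without the block gave 12 with no filter, 1 with limma voom, 5 with DESeq2, 0 with V. cholerae replicates 1 and 2 summed, 141 with replicates 1 and 2 only, and 0 to 11 with 1 library left out (0 without control 1 or 2 or V. cholerae 1 or 2, 3 without control 3 and 11 without V. cholerae 3). At an unadjusted p under 0.05 edgeR had 140 rows without the block. With the replicate block the count was 14 over all 9 libraries, 181 with limma voom and 30 with DESeq2. Leaving out control 1, 2 or 3 in the blocked fit gave 74, 48 and 122, and leaving out V. cholerae 1, 2 or 3 gave 74, 53 and 123. Blocked settings added after seeing the data gave 26 with replicates 1 and 2 summed in each group, 124 with only coding-opposite rows, 120 with 10 or more counts in all 6 libraries, 137 with no robust option, 154 with RLE factors and 161 with library totals alone. The replicate block reversed none of the 67 named rows and brought 45 past the threshold. Many of the 67 were named because they were called with the block, so that count follows largely from the choice.

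The rows that reversed were near 0 to begin with, except MIR4461. Their log2 fold changes without the block, followed by the range over fits that left out 1 library, were -0.10 and -0.27 to 0.10 for EXOSC9, 0.12 and -0.048 to 0.34 for LOC284889, 0.067 and -0.016 to 0.18 for PRC1-AS1, -0.065 and -0.17 to 0.097 for C5orf66, -0.057 and -0.17 to 0.12 for CCDC84, and -0.076 and -0.18 to 0.087 for GABPA. For CERS6-AS1 they were 0.00028 and -0.15 to 0.13, for BZRAP1-AS1 0.0059 and -0.039 to 0.029, for ATP6V1C2 -0.024 and -0.16 to 0.11, for MXD3 -0.038 and -0.20 to 0.15, for MIR4461 0.25 and -0.25 to 0.70, and for RPAIN -0.031 and -0.20 to 0.098. With V. cholerae replicates 1 and 2 summed, LOC284889 had -0.011, CERS6-AS1 -0.038 and BZRAP1-AS1 -0.0036. With replicates 1 and 2 only, C5orf66 had 0.012, CCDC84 0.0048 and CERS6-AS1 -0.078. CERS6-AS1 had -0.0092 with RLE factors, -0.015 with no filter and -0.0092 with DESeq2, and BZRAP1-AS1 had -0.00097, -0.0090 and -0.0010. In the blocked fit BZRAP1-AS1 had -0.0026 with DESeq2, -0.0067 with replicates 1 and 2 summed and -0.0027 with RLE factors, and RPAIN had 0.00072 with replicates 1 and 2 summed. In the replicate block without either library 1, LOC284889 had -0.037, BZRAP1-AS1 -0.052, ATP6V1C2 0.015 and RPAIN 0.037, and without either library 3, C5orf66 had 0.013, CCDC84 0.0056 and CERS6-AS1 -0.076. The cause was not tested.

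List medians moved with list membership. By row name they were 0.19 for NF-kB, 0.14 for interferon, 0.0081 for antigen processing, 0.13 for trafficking, -0.16 for ion transport, -0.20 for actin, -0.19 for G1/S, -0.23 for ribosomal proteins, -0.12 for glycolysis and 0.090 for Wnt. With replicates 1 and 2 only they were 0.38 for antigen processing, 0.20 for trafficking, -0.33 for actin, 0.33 for glycolysis and -0.14 for cholesterol. Leaving out 1 library gave -0.44 to -0.089 for NF-kB, 0.12 to 0.49 for antigen processing, -0.14 to 0.081 for autophagy, 0.11 to 0.28 for trafficking, 0.025 to 0.18 for ion transport, -0.41 to -0.18 for actin, -0.098 to 0.11 for the unfolded protein response, -0.40 to -0.25 for G1/S, -0.15 to 0.028 for ribosomal proteins, 0.13 to 0.35 for glycolysis, -0.086 to 0.086 for oxidative phosphorylation, -0.25 to -0.013 for cholesterol, 0.11 to 0.52 for Wnt and -0.50 to -0.13 for epithelial markers. Depth limits rows near 10 counts, and 36 of the 160 blocked calls had a mean under 30 counts.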

Other observations

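A further set of called rows, chosen after their values were seen, had no coding exon opposite or fell outside the lists, and their readings are uncertain for the reasons given above. All were lost with all 9 libraries and with replicates 1 and 2 summed in each group, and in 4 or more of the 6 blocked fits without 1 library. The row of TRPV6, a calcium channel of the gut epithelium, held 2, 2 and 5 counts in the controls and 11, 12 and 19 after vesicles, log2 1.94 ± 0.59 with the block (edgeR adjusted p = 0.0278). The row of MUC2, the main secreted mucin of the intestine, held 2, 6 and 13 counts in the controls and 9, 14 and 50 after vesicles, log2 1.41 ± 0.36 (edgeR adjusted p = 0.00404). The row of TJP3, a tight junction scaffold, held 3, 6 and 20 in the controls and 10, 13 and 56 after vesicles, log2 1.05 ± 0.33 (edgeR adjusted p = 0.0375). Lower were the rows of FLNA, an actin cross-linker (log2 -1.08 ± 0.28, edgeR adjusted p = 0.0048), SLC2A1, a glucose transporter (log2 -0.81 ± 0.24, edgeR adjusted p = 0.0241), and SLC20A1, a phosphate transporter (log2 -1.54 ± 0.46, edgeR adjusted p = 0.0252). The HNRNPU-AS1 row opposite COX20, an assembly factor of cytochrome oxidase, fell, at log2 -0.28 ± 0.07, and a second row opposite COX20, HNRNPU, had -0.37 ± 0.14 and was not called (edgeR adjusted p = 0.121).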
